A study of Mus musculus with 40 samples.

Results

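Of 40 RNA-seq libraries labelled as fetal mouse liver, 2 held the message of late fetal lung in place of liver, and 9 liver libraries of female fetuses served as their comparison. The 2 were chosen by their values: albumin (Alb) under 10000 and surfactant protein C (Sftpc) over 50000. They are CD4_F and CDF5_F, where the letters before the digit give the maternal diet, the digit the replicate and F a female fetus (CD4_F is a sample title and not the T cell gene Cd4). The 9 liver libraries are WD1_F, WD2_F, WD3_F, WD5_F and WDF1_F to WDF5_F. WD4_F stayed out of the liver arm because its Sftpc value was 2008, over the limit of 1000 set for that arm.

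The study measured polyadenylated RNA from fetuses of C57BL/6 mice at embryonic day 18.5, 1 library per mouse, in 8 groups of 5 defined by maternal diet and fetal sex. Dams ate a diet with 10% or 45% of its energy as fat and 2 or 10 mg of folic acid per kg of diet for 13 weeks before breeding. CD stands for 10% fat with 2 mg/kg folic acid, CDF for 10% fat with 10 mg/kg, WD for 45% fat with 2 mg/kg and WDF for 45% fat with 10 mg/kg. The labels name no dam or litter, so fetuses of 1 litter cannot be recognised.

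CD4_F and CDF5_F both came from 10% fat dams and all 9 liver libraries from 45% fat dams. Within these 11 libraries, maternal fat and the tissue difference therefore cannot be told apart. The 5 liver libraries of 10% fat females (CD1_F, CD2_F, CD3_F, CDF1_F and CDF3_F) served as a second comparison in a few places only. These are the genes furthest below liver, the red cell list and the gene counts under other settings. Every other liver range or median comes from 45% fat dams, and the part of diet in those differences was not tested. CD4_F and CDF5_F also differ from each other in maternal folic acid, with 1 library at each dose. All values are reads per gene divided by the library's size factor, as deposited, and differences are on the scale of log2(value + 1). Because Sftpc and Alb picked the libraries, and because genes of 1 tissue move together, what follows describes this contrast and carries no test.

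The 2 genes that picked the libraries are given first, and other genes of the labelled tissue further on. Alb was 7708 in CD4_F and 5278 in CDF5_F, against a lowest value of 918338, a median of 1234910 and a highest of 1496610 in the 9 liver libraries. The next lowest Alb value in the series was 641907, in CD4_M, so no library lay near the limit of 10000. Sftpc was 101239 in CD4_F and 67014 in CDF5_F, against 0, 1.78 and 127 as the lowest, median and highest liver value. The library just under the limit of 50000 was CD5_F with 30176. CD4_F and CDF5_F carried 0.624% and 0.427% of the median liver level of Alb, which the rule itself fixed.

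Late fetal lung is a tree of airways ending in thin-walled sacs. The sacs are lined by type 2 cells, which make surfactant, the lipid and protein film that keeps air spaces from collapsing at the first breath, and by flat type 1 cells, through which gas will pass. The airways hold secretory and ciliated cells, the transcription factor Nkx2-1 marks the lung epithelium, and a mesenchyme rich in elastic fibres and capillaries surrounds it. Fetal liver, by contrast, contains hepatocytes that secrete plasma proteins and is the main site where red cells are made before birth.

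The starts of 3 genes that define the tissues at issue are shown, each for 1 tissue: Sftpb for lung, Alb for liver and Myh6 for heart. Each sequence runs 5′ to 3′ on the gene's strand, from 250 bases before the start to 50 after it, and comes from RefSeq on GRCm38.p6. Sftpb lies on the plus strand at chr6:72304360-72304659, Alb on the plus strand at chr5:90460620-90460919 and Myh6 on the minus strand at chr14:54966558-54966857. Capitals mark matches, on either strand, to any of 4 motifs: GTTAAT (a half-site of the HNF1 factors of hepatocytes), CAAGTG and CTCAAG (cores bound by NKX2 factors) and TATTTTTA (a core bound by the MEF2 factors of muscle).
Sftpb: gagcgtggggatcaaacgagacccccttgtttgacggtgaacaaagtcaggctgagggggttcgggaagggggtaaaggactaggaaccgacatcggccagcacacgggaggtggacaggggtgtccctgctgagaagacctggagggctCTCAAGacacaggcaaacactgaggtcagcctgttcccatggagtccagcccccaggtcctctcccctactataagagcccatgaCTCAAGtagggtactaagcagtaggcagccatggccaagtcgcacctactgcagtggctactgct
Alb: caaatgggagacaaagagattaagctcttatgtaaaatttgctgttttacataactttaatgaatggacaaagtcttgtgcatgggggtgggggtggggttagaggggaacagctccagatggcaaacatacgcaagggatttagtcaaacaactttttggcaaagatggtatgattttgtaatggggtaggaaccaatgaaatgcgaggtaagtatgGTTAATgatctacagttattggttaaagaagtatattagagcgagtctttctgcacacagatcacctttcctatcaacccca
Myh6: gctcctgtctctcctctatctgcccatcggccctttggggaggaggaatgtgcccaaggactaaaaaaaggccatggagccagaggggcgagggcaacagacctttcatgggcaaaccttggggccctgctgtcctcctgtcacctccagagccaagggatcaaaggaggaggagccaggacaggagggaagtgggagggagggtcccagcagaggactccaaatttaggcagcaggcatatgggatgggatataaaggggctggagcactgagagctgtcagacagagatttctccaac

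The Sftpb start held CTCAAG at bases 151 and 236, counted from the first base shown, and none of the other 3 motifs. The Alb start held GTTAAT at base 219. No letters of the 4 motifs occurred in the Myh6 window. CTCAAG was added to the search after the Sftpb sequence had been seen, so its presence there is no finding. All 27025 listed starts held GTTAAT in 7.2%, CAAGTG in 13.5%, TATTTTTA in 2.71% and CTCAAG in 16.2% of cases, and the shares that follow are in the same order. Of the 2170 genes counted below as higher in both lung-like libraries, 1564 had a listed start, and of these 4.16%, 12%, 1.34% and 13.4% held the motifs. Of the 1456 genes lower in both, 1066 had a listed start, with 10%, 14.9%, 1.22% and 12.7%. Of the 267 genes higher in CDF5_F than in CD4_F, 189 had a listed start, with 7.94%, 15.3%, 4.76% and 21.2%. These shares count genes, which can have several starts, so they differ in unit from the shares over all starts.

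**Figure D1:**
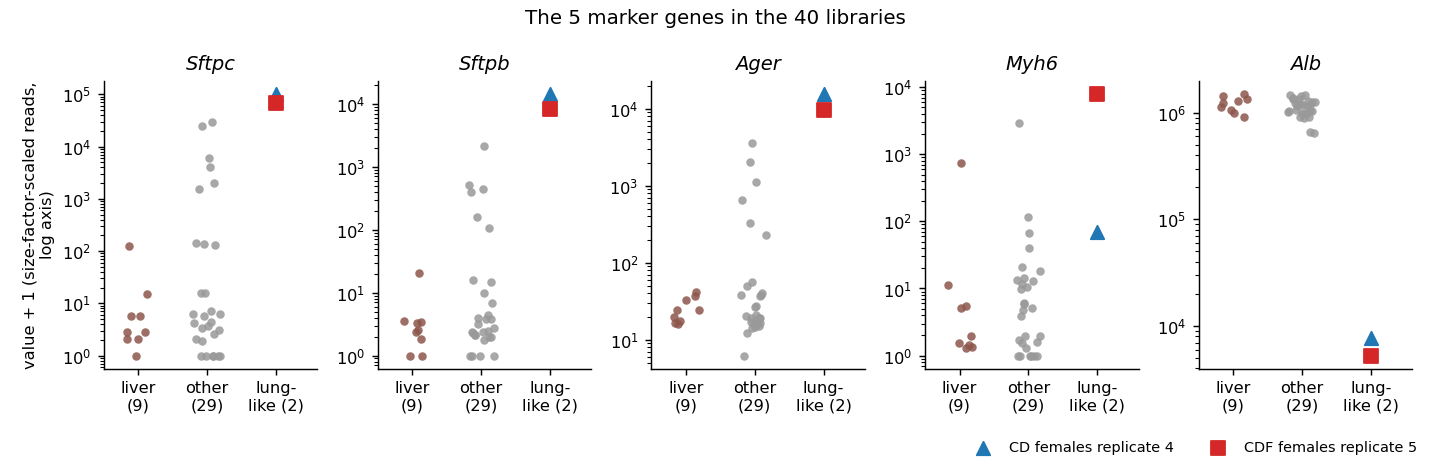
The 5 marker genes in the 40 libraries, as value + 1 on a log axis; each point is 1 library, in the 9 liver libraries, the 29 libraries of neither arm and the 2 lung-like libraries. Sftpc, Sftpb and Ager lie above, and Alb below, every other library in both lung-like libraries, while Myh6 is at 7903 in CDF5_F and at 68.7 in CD4_F.

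Sftpb (chr6:72304610-72314371 on GRCm38), a surfactant protein needed for breathing at birth, was 14236 in CD4_F and 8381 in CDF5_F, with a liver range of 0 to 19.4. Ager (chr17:34597862-34600936), a receptor of type 1 cells, was 15498 and 9592, with a liver range of 14.8 to 41.2. Both libraries were far above all 9 liver libraries for both genes. Myh6 (chr14:54941921-54966927), a heart muscle myosin, was 68.7 in CD4_F and 7903 in CDF5_F, against 0.278, 0.986 and 737 as the lowest, median and highest liver value. The highest of these, WDF1_F, overlapped with the lung-like libraries for Myh6: it stood above CD4_F and below CDF5_F.

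Across all genes, the 2 lung-like libraries were close to each other and far from liver. The correlation of log2 values over 16263 measured genes was 0.957 between CD4_F and CDF5_F, while the highest between either of them and a liver library was 0.679, and the lowest within the 9 liver libraries was 0.933. These correlations are across genes within pairs of libraries, and genes are not independent replicates. A gene counted as measured when it reached a value of 10 in at least 2 of the 11 libraries. It counted as higher or lower when both lung-like libraries were at least 4-fold from the liver median and outside the liver range.

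By that rule 2170 genes (13.3% of those measured) were higher and 1456 (8.95%) were lower in both lung-like libraries. A further 6927 genes, 42.6%, stayed within 2-fold of the liver median in both, and the median difference over all measured genes was 0.11. Every count below stands against these shares, but nothing is read from that, since the libraries were chosen on this contrast. The total of the scaled values was 9601753 in CD4_F and 8965558 in CDF5_F, against 16006355 to 20387797 in the liver libraries. Scaling all libraries to an equal total therefore adds 0.88 to the median log2 difference, and it turns the split of 2170 higher and 1456 lower genes (59.8% higher) into 3938 and 979 (80.1% higher).

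**Figure D2:**
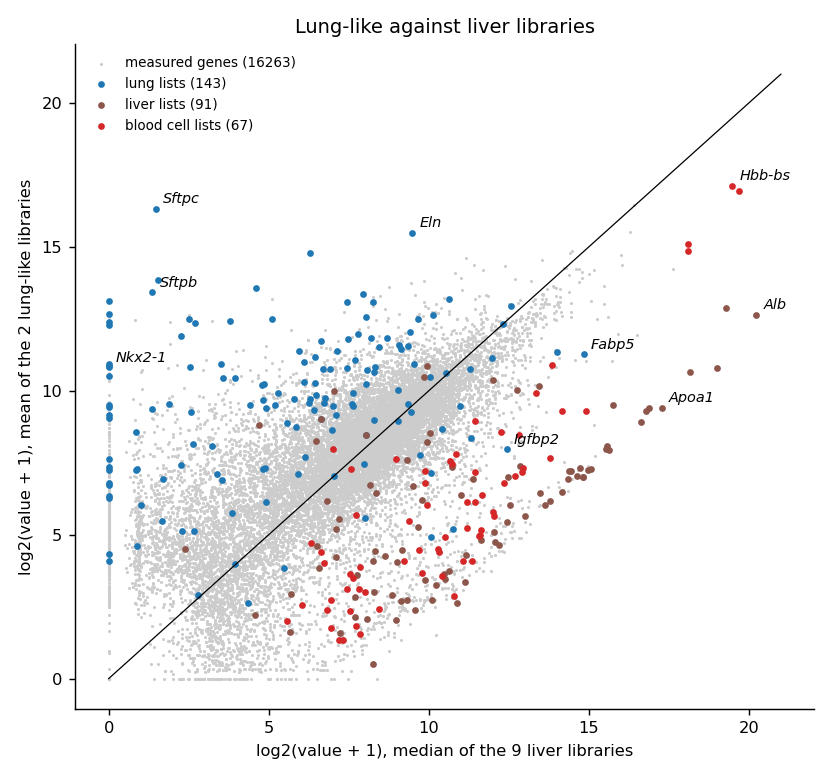
Log2(value + 1) of each measured gene, as the mean of the 2 lung-like libraries (y axis) against the median of the 9 liver libraries (x axis), with members of the lung, liver and blood cell lists in colour and the line of equal values in black. Sftpc and Eln lie far above the line and Alb and Apoa1 far below it, while Hbb-bs lies below the line but near the top of both axes.

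The 15 genes that stood furthest above liver, among those at 1000 or more in both lung-like libraries, were Sftpc, Cxcl15, Cldn18, Scgb3a2, Scn7a, Lamp3, Slc34a2, Sftpb, Ndnf, Nkx2-1, Sec14l3, Sfta3-ps, Retnla, Scgb1a1 and Tbx4. Most are textbook genes of lung epithelium. Cxcl15 (chr5:90794534-90803067), a chemokine also known as lungkine, was 11769 in CD4_F and 6626 in CDF5_F, with a liver median of 0 and a highest liver value of 16.4. Cldn18 (chr9:99689461-99717267), a tight junction protein of alveolar epithelium and stomach, was 7970 and 5215, with a highest liver value of 13.9. Scn7a, a sodium channel family member, was 7783 and 4664, and Ndnf, a secreted neuronal and endothelial growth factor, was 6778 and 4574. Retnla, a secreted resistin-like protein, was 2344 and 1440, and its highest liver value was 2.42. The transcript Sfta3-ps was 1690 and 1462, and it lies next to Nkx2-1 on the minus strand (chr12:56488321-56529427 and chr12:56531958-56536908). Neither lung-like library came near a liver library for any of these 15 genes, which follows from their choice by distance from liver.

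Among the genes of type 2 alveolar cells, 16 of 20 were higher in both lung-like libraries and 1 was lower, with a median difference of 4.49. Sftpa1 and Sftpd, the surfactant collectins that bind microbes, were 7012 and 2499 in CD4_F and 4723 and 1510 in CDF5_F, while no liver library passed 12.9 for Sftpa1 or 23.1 for Sftpd. Slc34a2 (chr5:53038081-53071664), the phosphate carrier of type 2 cells, was 19048 and 11543, with a highest liver value of 27.2. Lamp3, a protein of the lamellar bodies in which surfactant is stored, was 6790 and 4229, with a liver median of 0. Per kilobase of exon, Sftpc stood at 97910 in CD4_F and 64811 in CDF5_F, above Sftpb at 7234 and 4259 and Sftpa1 at 2452 and 1651. Of these genes of surfactant proteins, Sftpc thus had the highest value per length in both libraries.

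The members that did not follow their list are genes that liver expresses as well. Lyz2, a lysozyme also made by macrophages, was 6360 and 4039 against a liver range of 4130 to 6819, and its reads may be split with those of its close copy Lyz1. Scd1, a fatty acid desaturase, was 10655 and 5785 with a liver range of 4121 to 8274. S100g, a calcium binding protein, was 181 and 102 with a highest liver value of 126. Fabp5, a fatty acid binding protein, was 2556 and 2364 and lay below every liver library, whose lowest value was 26356.

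Genes for the lipid part of surfactant did not separate the tissues as its proteins did. Of 15 genes on the route of phosphatidylcholine to the lamellar body, 3 were higher, 1 was lower and the median difference was -0.16, which equal-sum scaling turns to 0.72. Abca3, which pumps lipid into lamellar bodies, was 7456 and 4380 against a liver range of 593 to 910. Lpcat1, which remodels phosphatidylcholine to its surfactant form, was 7914 and 5128 against 966 to 1630. Chpt1, which joins choline to the lipid backbone, was 749 and 657 against 88.5 to 169. Pcyt1a, the rate-limiting enzyme of phosphatidylcholine synthesis, overlapped between the tissues, at 1701 and 1419 against a liver range of 1172 to 1833. Lpin1, a phosphatidate phosphatase, was the member below all liver libraries, at 371 and 289 against 1604 to 3644.

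Type 1 alveolar cell genes were higher in 15 of 16 cases, with 1 lower and a median difference of 5.52. The caveolae protein Cav1 was 12648 and 8620 with a highest liver value of 387, and the membrane protein Emp2 was 10821 and 7015 with a highest liver value of 212. The water channel Aqp5 was 935 and 507 and was listed at 0 in the median liver library, with a highest liver value of 3.51. Hopx, a cofactor of type 1 cells, was 4168 and 3096 against a highest liver value of 221. Igfbp2, a binder of insulin-like growth factors and a marker of mature type 1 cells, went the other way, at 225 and 279 against 2167, 5545 and 10909 in the lowest, median and highest liver library. Fetal hepatocytes are known to secrete this protein.

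Airway secretory genes counted 8 higher and 1 lower of 9, with a median difference of 7.37. The secretoglobins were the leading members. Scgb3a2 was 5027 in CD4_F and 4856 in CDF5_F, Scgb1a1, the club cell protein, was 2765 and 1262, and no liver library passed 5.81 for the former or 3.13 for the latter. Per kilobase of exon, Scgb1a1 and Scgb3a2 stood within a narrow range in CD4_F, at 5808 and 5712, while CDF5_F had 2651 and 5519. Cbr2, a carbonyl reductase of club cells, was 4953 and 2967 with a liver median of 3.75. The lower member was haptoglobin, Hp, a plasma protein that liver secretes, at 3277 and 2083 against 10659 to 28285.

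Scgb3a1 and Muc5b, products of the large airways, set the 2 lung-like libraries apart. Scgb3a1 was 42.5 in CD4_F and 624 in CDF5_F, and Muc5b, a gel-forming mucin, was 28.8 and 405. The keratin Krt5, a marker of basal cells, was 4.96 and 66.4. All 3 were higher in CDF5_F, although most airway genes were slightly lower there. Among basal and neuroendocrine genes, 3 of 6 measured were higher in both than in liver, including Krt15 at 360 and 403 with a highest liver value of 2.69. Calca, a peptide hormone gene of neuroendocrine cells, was low in both, at 23.2 and 23.8.

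Genes of motile cilia were higher in 9 of 10 cases, with a median difference of 6.34 and summed values of 2535 in CD4_F and 2000 in CDF5_F against 67.3 to 140 in liver. Foxj1, the factor that switches on motile cilia, was 676 and 555 with a highest liver value of 12.2. The dynein light chain Dynlrb2 was 161 and 140, and the liver libraries lay between 0 and 1.40. Dnaic1, an axonemal dynein chain, was the exception, at 13.0 and 13.4 against 19.4 to 68.9.

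**Figure D3:**
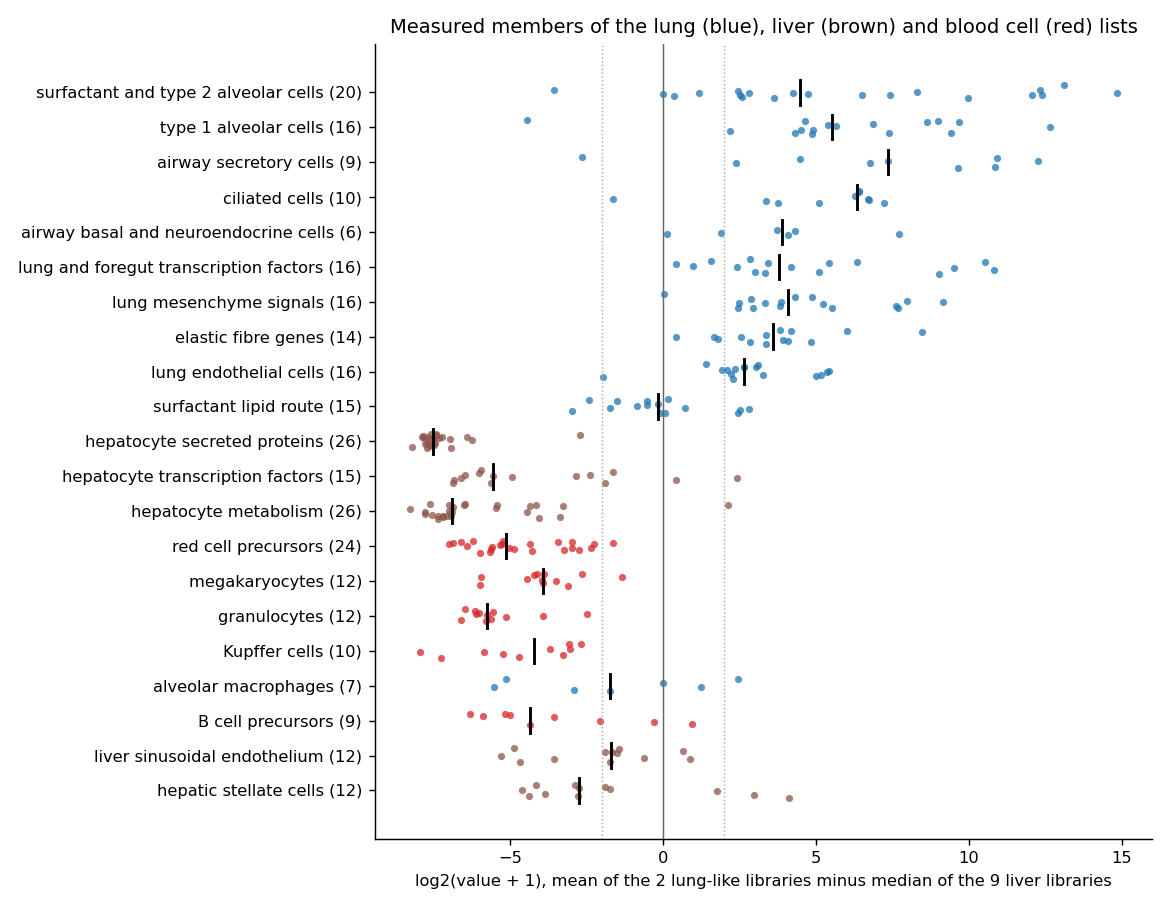
Difference of each measured list member between the mean of the 2 lung-like libraries and the median of the 9 liver libraries, on log2(value + 1); points are genes, black bars list medians, dotted lines 4-fold, and the number of measured members stands after each list name. Lung lists other than the surfactant lipid route and alveolar macrophages have medians of 2.65 to 7.37, while the hepatocyte lists lie between -5.55 and -7.54.

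Transcription factors that pattern the lung were higher in 13 of 16 cases, with none lower and a median difference of 3.81. Nkx2-1 was 2037 in CD4_F and 1621 in CDF5_F, and its highest liver value was 0.80. The mesenchymal factors Tbx4 and Tbx5 were 1777 and 893 in CD4_F and 1225 and 604 in CDF5_F, and their highest liver values were 3.97 and 7.40. Elf5, a factor of the distal tips, was 622 and 446, with a highest liver value of 5.48. Sox2, a factor of the conducting airways, was 84.2 and 76.4, and liver stayed at or below 2.00. The 3 that did not pass the rule were Foxa2, Foxp1 and Sox9. Foxa2, shared by lung and liver epithelium, was 416 and 297 against a liver range of 193 to 345.

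Signals that pass between lung epithelium and mesenchyme counted 14 higher of 16, none lower. The ligand Shh was 676 and 477 with a liver median of 0, its receptor Ptch1 was 2093 and 1587 against 188 to 442, and its target Gli1 was 274 and 271 with a liver median of 8.27. Fgf10, which drives branching, was 799 and 532 with a highest liver value of 4.27, and Fgf7 was 242 and 161 with a highest liver value of 1.17. Wnt2 and Wnt7b, ligands of early lung growth, were 831 and 318 in CD4_F and 622 and 252 in CDF5_F, both above all liver libraries. Lgr5 overlapped with liver at 19.2 and 11.6 against 6.94 to 24.0. Fgf9, a ligand of epithelium and mesothelium, and Wnt2b were higher in CDF5_F, at 67.9 and 49.2 against 28.1 and 22.8 in CD4_F.

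Of 14 elastic fibre genes 11 were higher than in liver and none lower, with a median difference of 3.61. Elastin, Eln, was 64794 in CD4_F and 32820 in CDF5_F against 246, 713 and 1214 in the lowest, median and highest liver library. Mfap4, a microfibril protein that binds elastin and surfactant collectins, was 35289 and 22171 with a highest liver value of 140. Per kilobase of exon, Mfap4 was above Eln in both libraries, at 18361 and 11535 against 8001 and 4053. Lox, which cross-links elastin, was 10284 and 7506 against 144 to 463. Eln was 0.98 lower in CDF5_F than in CD4_F on the log2 scale, among the larger gaps of the list.

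Endothelial genes were higher in 11 of 16 cases, with none lower and a median difference of 2.65, and liver has endothelium of its own. The pan-endothelial genes Cdh5 and Pecam1 were 5356 and 4396 in CD4_F and 3342 and 3020 in CDF5_F, against highest liver values of 812 and 470. Car4, a carbonic anhydrase of lung capillaries, was 88.3 and 46.0 with a highest liver value of 3.28, and Prx was 1679 and 831 with a highest of 31.5. In contrast, genes of the liver's own sinusoidal endothelium were lower in 4 of 12 cases: Stab2, Clec4g, Oit3 and Dnase1l3. Stab2, a scavenger receptor, was 86.9 and 62.3 against 755 to 1020, and Clec4g, a lectin, was 8.40 and 4.32 against 138 to 308. Lyve1, which lymphatic vessels share, was 1826 and 1129 and lay above the liver range of 739 to 1050.

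Of 7 measured genes of alveolar macrophages, 2 were lower, 1 was higher and 4 were neither. Marco and Chil3, used as markers of alveolar macrophages, were 42.5 and 35.7 in CD4_F and 30.2 and 23.9 in CDF5_F, below liver ranges of 1237 to 3122 and 589 to 1671. The higher one was Plet1, which epithelium also expresses, at 192 and 124 with a highest liver value of 32.8. All 10 Kupffer cell genes were lower, led by Clec4f, the defining lectin of these liver macrophages, at 6.44 and 6.02 against 819 to 2731. The complement gene C1qa was 180 and 198 against 1163 to 2484. In bulk RNA, fewer cells of a type and less RNA per cell cannot be told apart, here and for each cell type named.

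All 26 genes of secreted hepatocyte proteins were lower in both lung-like libraries, with a median difference of -7.54. Their level was 0.667% of the liver median in CD4_F and 0.431% in CDF5_F, as the median over the 26 genes. Alpha-fetoprotein, Afp (chr5:90490737-90508907), the fetal counterpart of albumin, was 2070 and 1549 against 412067, 526621 and 653601 in the lowest, median and highest liver library. Apolipoprotein A1, Apoa1, was 783 and 585 against 110935 to 216385, and transferrin, Trf, was 9810 and 5809 against 557994 to 822283. Ceruloplasmin, Cp, which lung also makes, kept the largest share, at 1249 and 875 against 5180 to 10310. The plasma carrier Ttr was higher in CDF5_F, at 1350 against 391 in CD4_F, with a lowest liver value of 53052.

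The 15 genes that stood furthest below liver, among those at 1000 or more in all 9 liver libraries, were Spp2, Afp, Cyp2d10, Habp2, Gys2, Mtarc1, Kng2, Apoc4, Slc39a5, C8b, Ambp, Apoa1, Apof, Fgl1 and Apoa2. Spp2 (chr1:88406961-88426438), a secreted phosphoprotein, was 14.3 and 10.8 against 2683, 3948 and 7142. Gys2, the liver form of glycogen synthase, was 7.77 and 3.30 against 1562 to 2041. C8b, a component of complement, was 23.2 and 18.2 against 3136 to 5916. Cyp2d10 and Kng2 have close copies, so their values are uncertain as single genes. The values of these 15 genes in the liver libraries of 10% fat females lay in the same order of magnitude, for example 3716 to 3897 for Spp2 and 437320 to 543735 for Afp.

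Of 26 genes of hepatocyte metabolism, 25 were lower and none higher, with a median difference of -6.91. Cps1, the first enzyme of the urea cycle, was 105 and 71.7 against 4375 to 22575, and Cyp7a1, the rate-limiting enzyme of bile acid synthesis, was 6.27 and 2.78 against 386 to 1545. Baat, which conjugates bile acids, was 0.979 in CD4_F and was listed at 0 in CDF5_F, against 191 to 424. Tdo2, a tryptophan oxidase, was the exception at 28.0 and 17.1, with a liver range of 0 to 17.7. Among 15 hepatocyte transcription factors, 9 were lower and 1, Foxa1, was higher. Hnf4a, the central factor of hepatocytes, was 27.1 and 26.8 against 1872 to 4282, and Foxa1, which lung epithelium shares, was 656 and 418 against 48.5 to 130.

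Blood-forming genes were lower too, but by unequal amounts. Of 24 red cell genes, 22 were lower, with a median difference of -5.14. Of the 22 lower members, the adult globin Hbb-bs kept the largest share: it was 139236 in CD4_F and 148139 in CDF5_F against 500697, 728973 and 1460380, or 19.1% and 20.3% of the liver median. Hba-a2 was 128216 and 121590 against 527316 to 1856770, or 15.2% and 14.4%. The embryonic globins Hbb-y and Hba-x were the 2 members not counted as lower, at 26.6 and 24.4 in CD4_F and 23.3 and 16.6 in CDF5_F, against 39.2 to 234 and 56.0 to 190. Reads of the near-identical globin pairs Hba-a1 and Hba-a2, and Hbb-bs and Hbb-bt, cannot be assigned with certainty. Factors of immature red cells were far lower than the globins: Klf1 was 21.1 and 12.1 against 1422 to 2438, and Gata1 was 10.3 and 11.2 against 927 to 2012. Alas2, the heme enzyme of red cells, stood with the globins at 1870 and 1897 against 9870 to 37435. Per kilobase of exon, Hba-a2 (192228) and Hbb-bs (181297) were above Sftpc (97910) in CD4_F.

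Genes of other blood lineages were lower too. All 12 granulocyte genes were lower, with the granule enzyme Mpo at 32.9 and 36.2 against 1994 to 4252 and S100a9 at 201 and 205 against 9017 to 21110. In the platelet lineage 11 of 12 megakaryocyte genes were lower, and Vwf, which endothelium shares, was the exception at 179 and 219 against 198 to 1030. Of 9 measured genes of B cell precursors, 6 were lower, including Igll1 of the surrogate light chain at 1.44 and 2.45 against 177 to 344. Rag1, the recombinase gene of B and T cell precursors, was the member that split the 2 libraries, at 51.3 in CD4_F and 1187 in CDF5_F.

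Genes of mesothelium and smooth muscle, which lung holds too, and of other organs were counted next. Mesothelial genes, of the pleural and pericardial lining, were higher in 7 of 10 cases, with Msln at 3377 and 2105 against 94.5 to 323 and Upk3b at 1475 and 1785 against 157 to 428. Smooth muscle genes were higher in 6 of 10, and in 10 of 10 under equal-sum scaling, with Myh11 at 969 and 789 against 29.8 to 57.7. Of 6 measured cartilage genes, 1 was higher, or 5 under equal-sum scaling. It was Hapln1, a link protein of matrix, at 605 and 414 with a highest liver value of 10.4, while the matrix protein gene Comp was lower, at 2.34 and 7.57 against 95.6 to 360. Cdh16, a cadherin listed here under kidney, was 491 and 291 with a highest liver value of 12.9. Of the 4 measured genes of intestine and stomach none was higher, and Tff3 was 17.4 and 8.91 against 1674 to 4440.

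Heart genes set CDF5_F apart from CD4_F. A gene entered this comparison of 1 library with 1 at a value of 50 or more in either, and counted at a 4-fold difference. Of 12501 such genes, 267 (2.14%) were higher in CDF5_F and 9 (0.072%) lower, and the median difference was -0.10. Heart lists held 49 of the 267, out of 70 heart list genes measured. Of the 65 genes that reached 500 in CDF5_F, 35 were on the heart lists, 2 were thymus genes and 28 were on neither. This pair was picked for its heart genes, so these counts too are a description, and folic acid dose differs between the libraries.

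**Figure D4:**
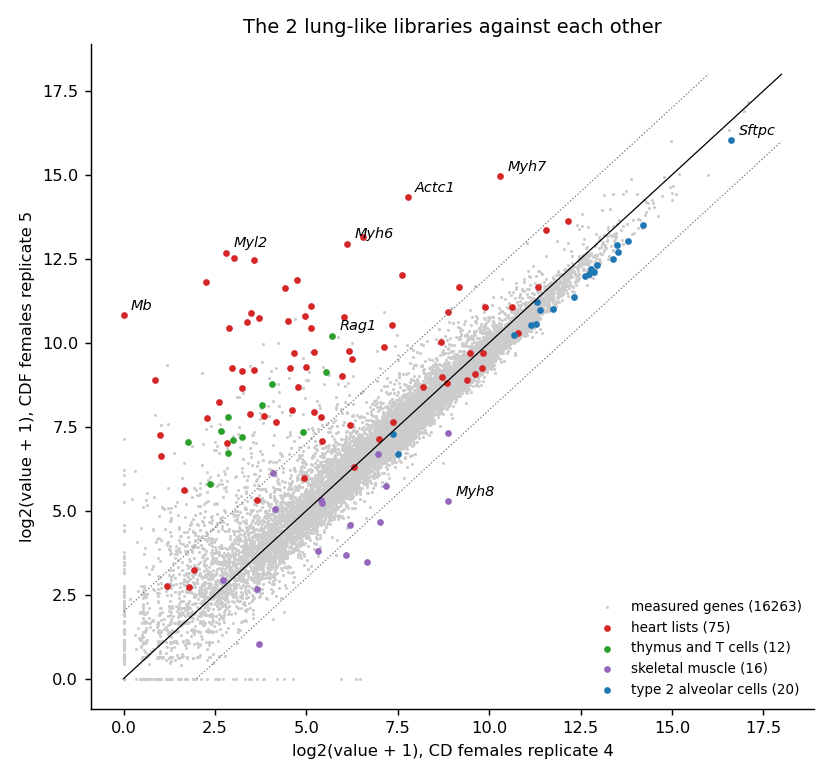
Log2(value + 1) of each measured gene in CDF5_F (y axis) against CD4_F (x axis), with heart, thymus, skeletal muscle and type 2 alveolar genes in colour, the line of equal values in black and 4-fold differences dotted. Heart and thymus genes such as Myl2, Actc1 and Rag1 lie above the upper dotted line, Myh8 lies below the lower one, and type 2 alveolar genes lie between the line of equal values and the lower dotted line.

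Of 22 sarcomere genes, 20 were higher in CDF5_F, with a median difference of 5.63. The ventricular light chains Myl2 (chr5:122100951-122113472) and Myl3 were 5.96 and 7.12 in CD4_F against 6565 and 5869 in CDF5_F. These are differences of 9.88 and 9.50 on the log2 scale. Cardiac actin, Actc1, was 218 and 20574, and the heart troponin T, Tnnt2 (chr1:135836354-135852260), was 92.1 and 9117. Per kilobase of exon, Actc1 was the highest of these in CDF5_F at 12715, above Myh7 at 3709, Myl2 at 3367 and Myh6 at 1175. Tpm1 and Nebl were the 2 that did not reach 4-fold, at 4533 and 12631 and at 1585 and 2147.

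Heart genes were also listed by chamber, as ventricular or atrial. All 4 measured ventricular genes were higher in CDF5_F, including Hey2, a ventricular repressor, at 41.2 and 221. Of 9 measured atrial genes 4 were higher: the atrial light chains Myl7 and Myl4, at 62.2 and 70.2 against 510 and 870, the hormone gene Nppa, at 6.41 against 1384, and the growth factor Bmp10, at 0.989 against 150. Bmp10 also had a liver range of 78.1 to 292, so CD4_F lay below liver for it. Another 4 of the 9 atrial genes lay below their CD4_F value, with a lowest difference of -0.51. Among them were the connexin Gja5, at 675 and 472, and the secreted protein Dkk3, at 916 and 822. Whether atrial tissue was present was not tested.

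Of 15 measured calcium and electrical genes, 10 were higher in CDF5_F. Phospholamban, Pln, which restrains the calcium pump of the heart, was 3.81 and 3623, the calcium store protein Casq2 was 34.0 and 2173, and the release channel Ryr2 was 140 and 939. The pump itself, Atp2a2, which other tissues share, was 3004 and 10573, short of 4-fold. Myoglobin, Mb, the oxygen store of muscle, was listed at 0 in CD4_F and was 1813 in CDF5_F. Of 14 genes of muscle energy supply 11 were higher, including the creatine kinase Ckm at 194 and 4180 and the fatty acid binder Fabp3 at 21.5 and 1610.

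Of 11 measured heart transcription factors and cofactors, 5 were higher in CDF5_F: Tbx20 at 6.79 and 613, Gata4 at 26.1 and 407, Hand2 at 1.04 and 98.4, the muscle methyltransferase Smyd1 at 24.5 and 824 and the stress-responsive Ankrd1 at 10.3 and 1901. Tbx5 and Gata6, which lung mesenchyme and epithelium share with heart, were 893 and 713 in CD4_F and 604 and 821 in CDF5_F. Gata4 and Hand2 were also among the genes listed for liver cells. The remaining genes among the 15 with the largest differences at 500 or more were Mybpc3, Trim55, Csrp3, Tnnc1, Tnni1, Tnni3 and Xirp1, all of muscle fibres. Tnnc1 was 20.4 and 3188 with a liver range of 94.9 to 1061, so CD4_F lay below liver for it. Mybpc3, a myosin binding protein, was 10.9 and 5643, and Trim55, a ubiquitin ligase of the sarcomere, was 1.26 and 645.

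CD4_F held muscle message too, as the skeletal muscle genes below show. Its summed sarcomere genes were 8186, against 1494, 2154 and 13414 in the lowest, median and highest liver library, the highest being WDF1_F. Most of the 8186 came from Tpm1 and Nebl, the sarcomere genes that fell short of 4-fold, and Myh7 added 1264. Myl2 (5.96), Myl3 (7.12), Mybpc3 (10.9) and Tnni3 (12.0) were low in CD4_F. The summed sarcomere value alone therefore does not show muscle message in CD4_F. Of 9 skeletal muscle genes measured in this comparison, 4 were lower in CDF5_F and 1, the calcium store protein Casq1, was higher, at 16.1 and 69.1. Myh8, the perinatal skeletal myosin, was 473 in CD4_F and 38.0 in CDF5_F, with a highest liver value of 5.14. The fast skeletal troponins Tnnt3 and Tnnc2 were 129 and 101 against 24.2 and 10.0, and the fast calcium pump Atp2a1 was 67.0 against 11.8. These were 4 of the 9 genes lower in CDF5_F, and the summed skeletal muscle list was 1759 in CD4_F and 622 in CDF5_F against 110 to 213 in liver. Myh7, shared by heart ventricle and slow skeletal muscle, was 1264 in CD4_F and 31959 in CDF5_F. Of the others, Gm45799, Gm28036, Rpl35a-ps2, Gm6565 and Gm10335 are predicted genes or pseudogenes, and the last 3 were listed at 0 in CDF5_F.

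Thymus message came with the heart message in CDF5_F, though not in the other heart-rich libraries described below. All 12 genes of thymus and T cells were 4-fold higher in CDF5_F, with a median difference of 4.23. Cd8a and Cd8b1, coreceptors of developing T cells, were 15.8 and 12.7 in CD4_F against 440 and 281 in CDF5_F, and their highest liver values were 7.77 and 2.75. Psmb11, a proteasome subunit of cortical thymic epithelium, was 2.38 and 132, and Ccl25, a chemokine of that epithelium, was 29.3 and 161. Other genes higher in CDF5_F were of mixed kinds. The antimicrobial lectin Reg3g was 76.9 and 510 with all 9 liver libraries at 0, the T cell receptor gene Trbc2 was 29.2 and 750, and the neuronal tubulin Tubb3, from the list of nerve genes, was 12.3 and 210. These 3 were singled out after their values were seen.

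The lung genes themselves were somewhat lower in CDF5_F. All 20 type 2 genes lay below their value in CD4_F, by a median of 0.67 on the log2 scale, and none reached 4-fold. Type 1 genes were lower in 15 of 16 cases with a median difference of -0.59, and endothelial genes in 16 of 16 with -0.60. Ciliated genes had a median of -0.30. Over all measured genes the median was -0.10, and these 4 lists lay below it. The basal and neuroendocrine list, with 3 genes measured in this comparison, had a median of 1.27. With 1 library on each side, whether this goes with folic acid, with the share of heart and thymus message or with the fetus cannot be told apart.

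Lung message also occurred in libraries of neither arm. Beside CD4_F and CDF5_F, 6 libraries had Sftpc above 1000: CD5_F (30176), CDF4_F (24797), WDF2_M (5978), CD5_M (4012), WD4_F (2008) and CDF2_F (1538). The remaining 32 stayed at or below 139.7. The 8 type 2 genes used here were called higher and had a highest liver value under 1% of CD4_F. Over these 8, CD5_F had a median of 14.3% of the CD4_F level and a range of 9.45% to 29.8%. The same median was 4.45% in CDF4_F, with a range of 0.890% to 24.5%, 3.78% in WDF2_M, 2.74% in CD5_M, 1.09% in WD4_F and 0.844% in CDF2_F. All 8 genes lay above the highest liver library in each of the 6. Sftpc, which picked the 6, is among the 8, and all 8 were chosen for low liver values, so this was largely fixed in advance. Of 27 lung genes chosen in the same way, 24 lay above the highest liver library in WD4_F and 26 in CDF2_F. All 27 did so in CD5_F, CDF4_F, WDF2_M and CD5_M. Over 6 airway and ciliated genes the medians were higher, at 25.2% in CD5_F, 18.4% in CDF4_F, 7.36% in WDF2_M, 4.98% in CD5_M, 3.09% in WD4_F and 2.53% in CDF2_F. Alb lay between 658016 (CDF4_F) and 1182130 (CD5_M) in these 6, and only CDF4_F and CD5_F (892731) were under the lowest value of the 9 liver libraries.

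**Figure D5:**
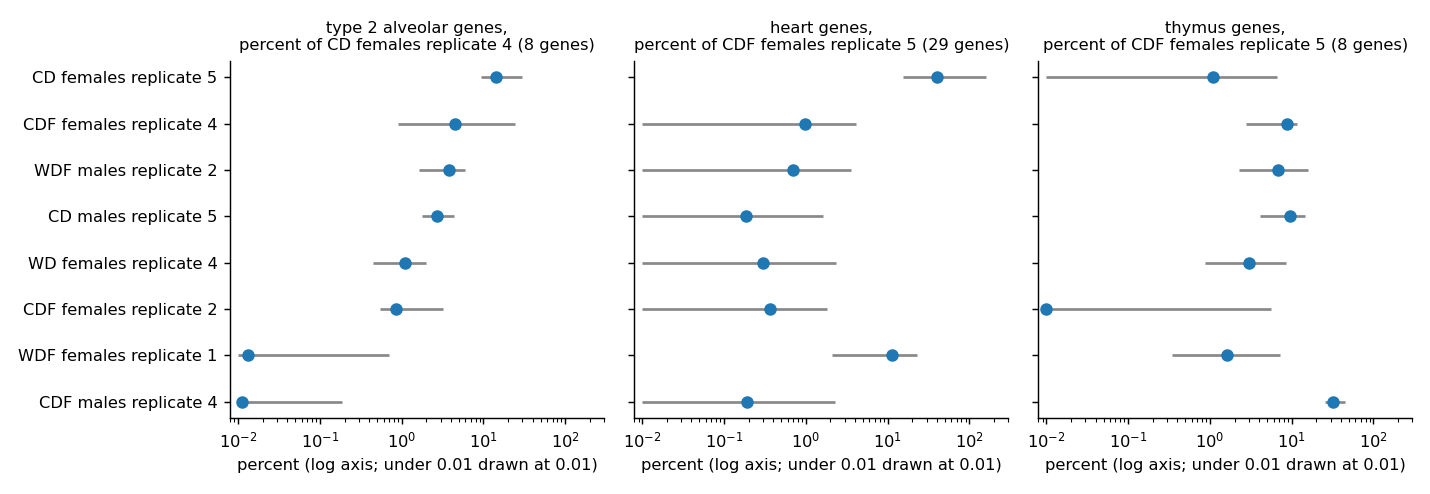
Median (point) and range (line) over genes of the level in 8 libraries, as a percent of CD4_F for type 2 alveolar genes and of CDF5_F for heart and thymus genes, on a log axis. CD5_F is highest for type 2 and heart genes, at 14.3% and 40.7%, WDF1_F has heart genes at 11.4% with almost no lung genes, and CDF4_M has thymus genes at 32.1%.

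Heart and lung message did not come in a fixed ratio. Over 29 heart genes, CD5_F had a median of 40.7% of the CDF5_F level, with a range of 15.5% to 158%, and WDF1_F, a member of the liver arm, had 11.4%. In WDF1_F the 8 type 2 genes stood at 0.0131% of CD4_F, so heart message came there with hardly any lung message. CD4_F itself had 1.33%. The largest of these percentages in CD5_F belonged to the atrial hormone gene Nppa, at 2189 against 1384 in CDF5_F. Thymus genes, over a set of 8, stood at 32.1% of CDF5_F in CDF4_M, a library with Sftpc at 6.01, and at 9.67% in CD5_M, 8.76% in CDF4_F and 6.78% in WDF2_M. They stood at 1.08% in CD5_F and 1.62% in WDF1_F, while the heart genes stood at 0.191% in CDF4_M.

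The percentages within a library varied with gene length. Over 27 lung genes, the 13 shorter ones stood at a median of 16.1% of CD4_F in CDF4_F and the 14 longer ones at 2.38%. In CD5_F these medians were 22.8% and 12.0%. Spearman's rho of percent with exon length was -0.77 in CDF4_F and -0.81 in CD5_F, across 27 genes that share both libraries and are not independent. Over 8928 genes expressed in every liver library, rho of the difference from the liver median with exon length was -0.53 in CDF4_F and -0.32 in CD5_F, 0.38 in CD4_F and 0.37 in CDF5_F, and -0.51 to 0.41 within the 9 liver libraries. The part of RNA length or quality in these percentages was not tested.

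These 2 libraries also bear on the authors' own tables. In the authors' deposited table for the comparison of folic acid doses in control diet females, the mean of Sftpc is 7657. The mean over the deposited values of all 10 CD and CDF females was 22491, and over the 8 without CD4_F and CDF5_F it was 7083. For Alb, the authors' deposited table gives 1209830, against 910224 with 10 libraries and 1136160 with 8. Nkx2-1 stands at 69.3 in the authors' deposited table, against 417 and 63.5. Myh6 stands at 265, against 1096 and 373, so the authors' mean lies below both. The authors' means lie nearer to those without the 2 lung-like libraries for each of these genes. Which libraries and which scaling entered the authors' means was not tested.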

How the data were processed

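RNA came from 40 fetuses, 5 in each of 8 groups. Per the labels' protocols, libraries were made from poly(A) RNA with a directional kit and read as pairs of 43 nt. The submitters' processing notes name Trimmomatic 0.39, STAR 2.7.3a, Salmon 1.3.0, DESeq2 1.24 and mm10, with no role given, and do not say whether counting used strand. The deposited gene table is called counts, but its values are a signal: the authors divided reads per gene by a size factor per library, as the values show. No count test was therefore used. Total scaled values were 9601753 and 8965558 in the lung-like and 16006355 to 20387797 in the 9 liver libraries, and the reads behind them are unknown.

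Differences were computed as log2 of the deposited value + 1, which understates the change of low genes, with Python 3.11.15 and pandas 2.3.3. Exon lengths and positions come from the GENCODE annotation of GRCm38, and 20572 of 20593 genes were found there. The 11 libraries, the 38 gene lists (466 of 506 genes are in the table) and the rules were chosen with earlier results of these data known. Named genes are the 5 markers, the 15 furthest in each direction at 1000 or more (500 within the pair), the highest members of each list, members at 0 and members that go against their list. The gene sets of the libraries in neither arm held list members called higher and were chosen after values were seen. Lung genes had a highest liver value under 1% of CD4_F. Heart and thymus genes had liver medians under 1% and 5% of CDF5_F. Authors' means come from the authors' deposited table.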

Additional observations from a re-analysis of the deposited data

Results flagged for a closer look

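Within the 4 female groups of 5, 40 sets of values (5 markers and 5 summed lists) were searched for a library whose gap to its nearest neighbour was over 0.71 of the group's range on the log2(value + 1) scale, and 10 such values were found, in 5 libraries. Chance gives about 1 in 20 for independent values picked without sight of the data. The markers and lists were chosen with earlier results known, and several move together. The count of 10 can therefore not be set against that rate. Alb was far below its group in CD4_F (7708) and in CDF5_F (5278), which the choice of libraries fixed. CDF5_F stood above its group in summed sarcomere genes (120952) and in summed thymus and T cell genes (3592), and CD4_F below its group in summed red cell genes (338434). WDF1_F stood above the other WDF females in Myh6 (737) and in summed sarcomere genes (13414). WDF4_F stood above the other WDF females in Sftpc, at 127. WD4_F stood above the other WD females in Sftpc (2008) and Sftpb (160).

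Among libraries of neither arm, 4 exceeded 10 times the highest liver sum of 27 lung genes, which was 517. The sums were 56607 in CD5_F, 35847 in CDF4_F, 12059 in WDF2_M and 9120 in CD5_M. CD5_F also exceeded the highest liver sum of 29 heart genes (12323, in WDF1_F) at 40010. The origin of these sums was not tested.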

How the results depend on the processing

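The counts of genes higher and lower than liver were 2170 and 1456. A minimum value of 100 gave 1330 higher genes and equal-sum scaling 3938. A 2-fold limit gave 3881 higher and 2872 lower genes, and a 16-fold limit 667 and 567. Leaving out 1 library at a time gave 1820 to 2265 higher and 1440 to 1884 lower genes, and both count ranges stay within 1.5 times of the count with all 11. Leaving out CDF5_F or CD4_F kept 1 lung-like library, and the measured genes fell from 16263 to 15327 and 15485. A gene then had to reach the minimum value in at least 1 liver library to be measured. A gene that passed in both lung-like libraries also passes the fold and range limits in either alone. The filter therefore set which of the 2170 higher genes were lost. More genes can count as higher or lower when only 1 library has to pass. How far the counts or their split rest on 1 lung-like library cannot be read from these 2 settings. Replacing the liver arm by the 5 control-fat females gave 2159 higher genes, 1987 of them shared with the 2170, and 1417 lower genes, 1325 of them shared with the 1456. Between the 2 lung-like libraries, 267 higher and 9 lower genes became 627 and 54 with no filter, 563 and 70 at 2-fold and 111 and 3 at 16-fold, and a minimum of 100 left 4 lower genes. Of 177 recomputed differences of 48 named genes, 0 changed sign. These genes were the markers and those picked for the largest differences, so that outcome was nearly fixed in advance. Alternatives for the lists were chosen after seeing the data: 28 of 304 recomputed list counts moved by over 1.5 times. Without WDF1_F, the heart-rich liver library, 9 sarcomere genes in place of 1 were higher than liver in both lung-like libraries. Equal-sum scaling took the airway secretory list from 1 lower member to 0. No paired analysis was possible because these results come from no test and same-numbered libraries share only a number. Depth limits low genes, and values as low as those of Calca (23.2 and 23.8) were not ranked against each other.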
